A study of Arabidopsis thaliana with 12 samples.

Results

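The 5 loci described here lie close together on chromosome 4 of Arabidopsis thaliana and encode 3 dirigent-like proteins, AT4G11180, AT4G11190 and AT4G11210, and 2 papain-like cysteine proteases, AT4G11310 and AT4G11320. They were picked by locus identifier from a table of 27827 loci, all 5 were measured, and no filter on low values was applied. They were picked with their measured values in these 4 genotypes known, so their own levels and differences are given as a description, without tests. Tests are given for the loci around them, for the rest of both protein families and for related lists. The lists were also drawn up with earlier results of these data known. RNA came from whole seedlings kept in the cold for 48 h, lit for 6 h and grown for 4 days in darkness. The light level was 100 µmol and the growth temperature 22 °C for all genotypes. Each genotype had 3 arrays (A, B and C), which the series' design text calls biological replicates from successive weeks. Col-0 is the wild type. PMEIox is a transformant in the Col-0 background that overexpresses PMEI5, an inhibitor of pectin methylesterases, and cnu1 and cnu2 are suppressor mutants of PMEIox that carry the same transgene. The cnu1 line is known to have a mutation in BRI1, the receptor for the growth hormone brassinosteroid, and the cnu2 line one in RLP44, a receptor-like protein. The transgene's promoter, the number of independent lines and the number of seedlings per sample are not given in the sources used here.

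Dirigent proteins are secreted proteins that have no catalytic activity of their own. They bind the radicals that oxidising enzymes make from monolignols and steer their coupling to one mirror form of a lignan such as pinoresinol, and a member of the family, ESB1, is needed for the lignin of the Casparian strip in the root endodermis. Papain-like cysteine proteases are made as inactive precursors, are activated by removal of a prodomain, and work in vacuoles, in the endoplasmic reticulum and its bodies, and in the wall space, where cystatins and other small proteins inhibit them. Pectin methylesterases remove methyl groups from wall pectin, and a seedling that overexpresses their inhibitor has altered pectin.

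The arrays and labels were checked first. The log base is not given, and all values were read as log2 intensities from their range. They share a common distribution, from 0.785 to 13.9. Arrays correlated with each other at Pearson's r of 0.983 to 0.994 across loci, which are not independent. PMEI5 (AT2G31430) stood between 12.53 and 12.69 on the 9 arrays with the transgene and at 8.19, 5.05 and 4.49 on Col-0 A, B and C. Col-0 A thus stood apart from the other Col-0 arrays, and the Col-0 means of the 5 loci are given below with and without it. Among marker lists, 0 of 9 root markers and 0 of 5 photosynthesis markers passed the test between PMEIox and Col-0 (limma, called at an adjusted p under 0.05, with 1 and 0 at an unadjusted p under 0.05), where 5.25% of all loci were called, while 14 of 14 seed storage and oil body markers and 5 of 9 root hair markers rose and 5 of 5 xylem secondary wall markers fell. The summed linear level of the root markers was 11125 to 12526 in Col-0, 11180 to 11725 in PMEIox, 12473 to 14389 in cnu1 and 11083 to 12510 in cnu2.

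The dirigent-like locus AT4G11190 was lower in PMEIox and returned in part or whole in the suppressors. Its log2 intensity was 8.88, 8.87 and 8.97 on the Col-0 arrays A, B and C, 6.43, 6.22 and 6.34 in PMEIox, 8.90, 8.66 and 8.98 in cnu1, and 8.09, 8.04 and 7.60 in cnu2. The PMEIox arrays lay below all others, the cnu2 arrays lay between PMEIox and the rest, and cnu1 overlapped Col-0. PMEIox differed from Col-0 by -2.58 ± 0.14 (SE) on the log2 scale, a 5.98-fold lower intensity, which was the 4th largest fall among all loci of the table. The difference from PMEIox was 2.52 ± 0.14 (SE) in cnu1 and 1.58 ± 0.14 (SE) in cnu2, and cnu2 minus Col-0 was -0.998. In whole seedlings, fewer cells that make a transcript and less transcript per cell cannot be told apart.

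AT4G11210, the next dirigent-like locus along the chromosome, shared the fall in PMEIox but not the partial return in cnu2. It read 5.73, 4.89 and 5.41 in Col-0, 3.75, 4.15 and 3.76 in PMEIox, 5.16, 4.71 and 5.04 in cnu1, and 4.08, 4.05 and 3.36 in cnu2. The values formed an upper set of Col-0 and cnu1, which overlapped, and a lower set of PMEIox and cnu2, which also overlapped. The log2 difference was -1.46 ± 0.23 (SE) between PMEIox and Col-0 and 1.08 ± 0.23 (SE) between cnu1 and PMEIox. Between cnu2 and PMEIox it was -0.06 ± 0.23 (SE), and cnu2 minus Col-0 was -1.51, the 4th largest fall in that comparison. The mean of AT4G11210 in PMEIox lay above that of 29.2% of all loci, and the table holds no detection calls that would show how far this is above background. Its mean over all 12 arrays lay above that of 37.8% of the loci, which puts it among the lowest 40%.

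AT4G11180, named DP1 (dirigent protein 1) in the gene table, gave a low and level signal. Its group means were 3.12 ± 0.19 in Col-0, 2.98 ± 0.09 in PMEIox, 2.94 ± 0.28 in cnu1 and 3.08 ± 0.29 in cnu2 (SD, n = 3 each), and the ranges of all neighbouring genotypes in this order overlapped. Its mean over all 12 arrays lay above that of 17.6% of the loci. The largest log2 difference between any genotypes was -0.18 ± 0.17 (SE), between cnu1 and Col-0. The locus sits next to AT4G11190, with 0 measured loci between them, and did not share its pattern.

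Both protease loci also differed between genotypes, in opposite directions. AT4G11320, also named CP2 (cysteine protease 2), read 11.72, 12.04 and 11.99 in Col-0, 8.80, 9.04 and 9.24 in PMEIox, 11.71, 11.97 and 11.89 in cnu1, and 10.77, 10.74 and 10.76 in cnu2. As for AT4G11190, PMEIox was lowest, cnu2 stood apart in the middle with 3 almost equal arrays, and cnu1 overlapped Col-0. The difference of PMEIox from Col-0 was -2.89 ± 0.13 (SE), a 7.41-fold lower intensity and the 2nd largest fall of the table. Against PMEIox the log2 difference was 2.83 ± 0.13 (SE) in cnu1 and 1.73 ± 0.13 (SE) in cnu2, the 4th and the 8th largest rise of these comparisons, and cnu2 minus Col-0 was -1.16.

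AT4G11310, also named CP1 (cysteine protease 1) and adjacent to AT4G11320 with 0 measured loci between them, was higher in PMEIox. It read 5.16, 5.40 and 5.53 in Col-0, 6.85, 6.79 and 6.71 in PMEIox, 5.19, 5.41 and 4.86 in cnu1, and 5.12, 5.28 and 5.48 in cnu2. PMEIox lay above all other arrays, and Col-0, cnu1 and cnu2 overlapped one another. The log2 difference was 1.42 ± 0.15 (SE) for PMEIox against Col-0, -1.63 ± 0.15 (SE) for cnu1 against PMEIox and -1.49 ± 0.15 (SE) for cnu2 against PMEIox. Unlike AT4G11320, AT4G11310 in cnu2 differed from Col-0 by only -0.07 ± 0.15 (SE). Both loci belong to one protease family, and the probe sequences that would show how well the array tells them apart were not used here.

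**Figure D1:**
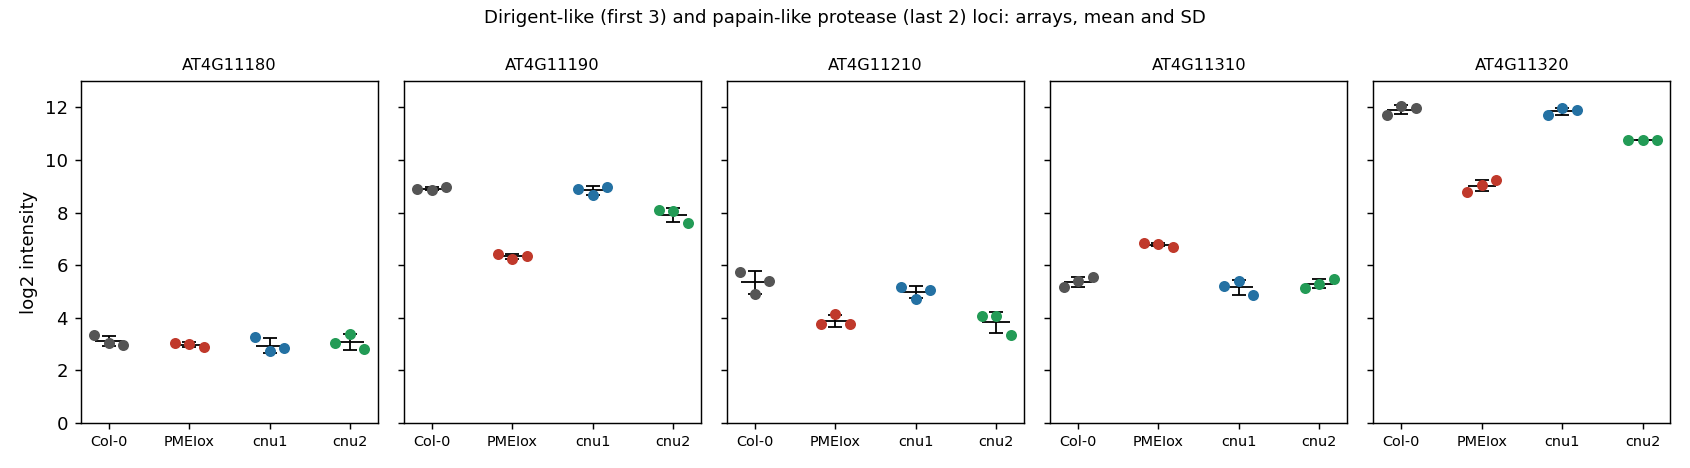
Log2 intensity (vertical axis) of the 5 loci in Col-0, PMEIox, cnu1 and cnu2, with 1 point per array in the order A, B and C and bars for the mean and SD (n = 3). AT4G11190 and AT4G11320 are lowest in PMEIox and intermediate in cnu2, AT4G11210 is low in PMEIox and in cnu2, AT4G11310 is highest in PMEIox, and AT4G11180 is level near 3. Heights of different loci are not comparable, since probes differ in brightness.

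The 5 loci thus showed 4 patterns over the genotypes. Their median log2 difference was -1.46 between PMEIox and Col-0, 1.08 between cnu1 and PMEIox, 0.10 between cnu2 and PMEIox and -0.998 between cnu2 and Col-0, beside medians within 0.005 of 0 over all loci. Between cnu1 and Col-0 the differences were small, from -0.37 ± 0.23 (SE) for AT4G11210 to -0.06 ± 0.13 (SE) for AT4G11320, and the arrays of both genotypes overlapped at all 5 loci. Between cnu1 and cnu2, AT4G11190, AT4G11210 and AT4G11320 were higher in cnu1 by 0.94, 1.14 and 1.10 log2 units, with no overlap of the arrays, and AT4G11180 and AT4G11310 differed by -0.14 each. These values chose the loci, so no test of them is given. The share of all loci without overlap is not given here, and with few arrays per genotype some separate by chance. The comparisons share arrays, so their differences are not independent of each other.

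Without Col-0 A the Col-0 mean was 8.92 in place of 8.91 for AT4G11190, 5.15 in place of 5.34 for AT4G11210, 3.01 in place of 3.12 for AT4G11180, 5.47 in place of 5.36 for AT4G11310 and 12.01 in place of 11.91 for AT4G11320. AT4G11190, AT4G11210, AT4G11310 and AT4G11320 kept their order of PMEIox against Col-0 without this array. For AT4G11180, whose values were level, PMEIox minus Col-0 ran from -0.21 to -0.04 when any single array was left out. The difference closest to 0 after leaving out any single array was -1.27 for AT4G11210, 1.31 for AT4G11310, -2.53 for AT4G11190 and -2.77 for AT4G11320.

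The opposite differences of the adjacent protease loci were set beside those of all adjacent loci, as a description, since these values were among those that chose the loci. Of 27820 pairs of loci that follow each other in locus code on the same chromosome, 2 had loci that differed at least 2-fold in opposite directions between PMEIox and Col-0, whatever their test gave. They were AT4G11310 with AT4G11320, and CRU3 (AT4G28520), which encodes a seed storage globulin and rose, with NAC074 (AT4G28530), which encodes a transcription factor and fell. The gap between the log2 differences of AT4G11310 and AT4G11320 was 4.31, and 5 pairs including this one had a gap at least as wide. Between cnu1 and PMEIox the gap was 4.46, the widest of all pairs, and 3 pairs differed at least 2-fold in opposite directions. Between cnu2 and PMEIox it was 3.22, with 7 pairs at least as wide and 2 that differed at least 2-fold in opposite directions.

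The loci around the 5 were next examined to see how far along the chromosome the differences reached. Between AT4G11210 and AT4G11310 lie 11 measured loci, and the window from AT4G11100 to AT4G11400 held 30 loci besides the 5. Of these 30, 1 rose and 1 fell in PMEIox against Col-0, which is 6.67% beside 5.25% of all loci. In cnu1 against PMEIox 2 rose and 2 fell, 13.3% beside 6.44%, and in cnu2 against PMEIox 1 rose and 1 fell, 6.67% beside 3.25%. Of 30 loci these shares are counts of 2 to 4, and whether the window differs from the table was not tested. The median log2 difference of the 30 was -0.10, 0.05 and 0.01 in these comparisons, beside -0.0049, -0.002 and 3.3e-07 over all loci. The 11 loci between the dirigent-like and the protease pairs include the ethylene synthesis gene ACS6 and SGT1B, a co-chaperone gene of immune receptors, which differed by -0.22 and -0.0007 between PMEIox and Col-0 and were not called.

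The locus that fell was AT4G11211, directly after AT4G11210. It read 8.73, 9.13 and 9.07 in Col-0, 7.39, 7.86 and 7.73 in PMEIox, 9.12, 9.22 and 9.38 in cnu1, and 8.38, 8.63 and 8.56 in cnu2. PMEIox lay below all others and cnu2 between PMEIox and Col-0, as for AT4G11190 and not as for AT4G11210. AT4G11211 fell by 1.32 ± 0.15 (SE, limma adjusted p = 0.000234) in PMEIox. Against PMEIox it rose by 1.58 ± 0.15 (SE, limma adjusted p = 4.15e-05) in cnu1 and by 0.86 ± 0.15 (SE, limma adjusted p = 0.00712) in cnu2. The place of cnu2 below Col-0 and cnu1 was not called. For cnu2 minus Col-0 the difference was -0.46 (limma adjusted p = 0.254), and for cnu1 minus cnu2 it was 0.72 (limma adjusted p = 0.0552). Neither the array table nor the gene table names a function for it.

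At the far end of the window AT4G11393, also without a named function, went the other way. It rose by 1.19 ± 0.10 (SE, limma adjusted p = 3.62e-05) in PMEIox, from 5.78 ± 0.08 to 6.97 ± 0.12 (SD, n = 3 each). In cnu2 it was back at 5.62 ± 0.14 (SD, n = 3), a difference from PMEIox of -1.35 (limma adjusted p = 3.18e-05). In cnu1 it stood at 6.53 ± 0.02 (SD, n = 3), above Col-0 by 0.75 (limma adjusted p = 0.00647) and above cnu2 by 0.91 (limma adjusted p = 0.0026). Its difference between cnu1 and PMEIox was -0.44 (limma adjusted p = 0.0217), a call that ended without PMEIox B, PMEIox A or any single cnu1 array (adjusted p up to 0.0915). MPK5 (AT4G11330), a MAP kinase gene directly after AT4G11320, rose in cnu1 against PMEIox by 0.87 ± 0.21 (SE, limma adjusted p = 0.0253), while its difference between PMEIox and Col-0 was -0.59 and was not called. The MPK5 call ended without any one of cnu1 A, cnu1 B, cnu1 C or PMEIox A (adjusted p from 0.0553 to 0.083). AT4G11120 differed by -0.49 between cnu1 and PMEIox (limma adjusted p = 0.0293), a call that ended in 6 of 20 alternatives (adjusted p up to 0.117).

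**Figure D2:**
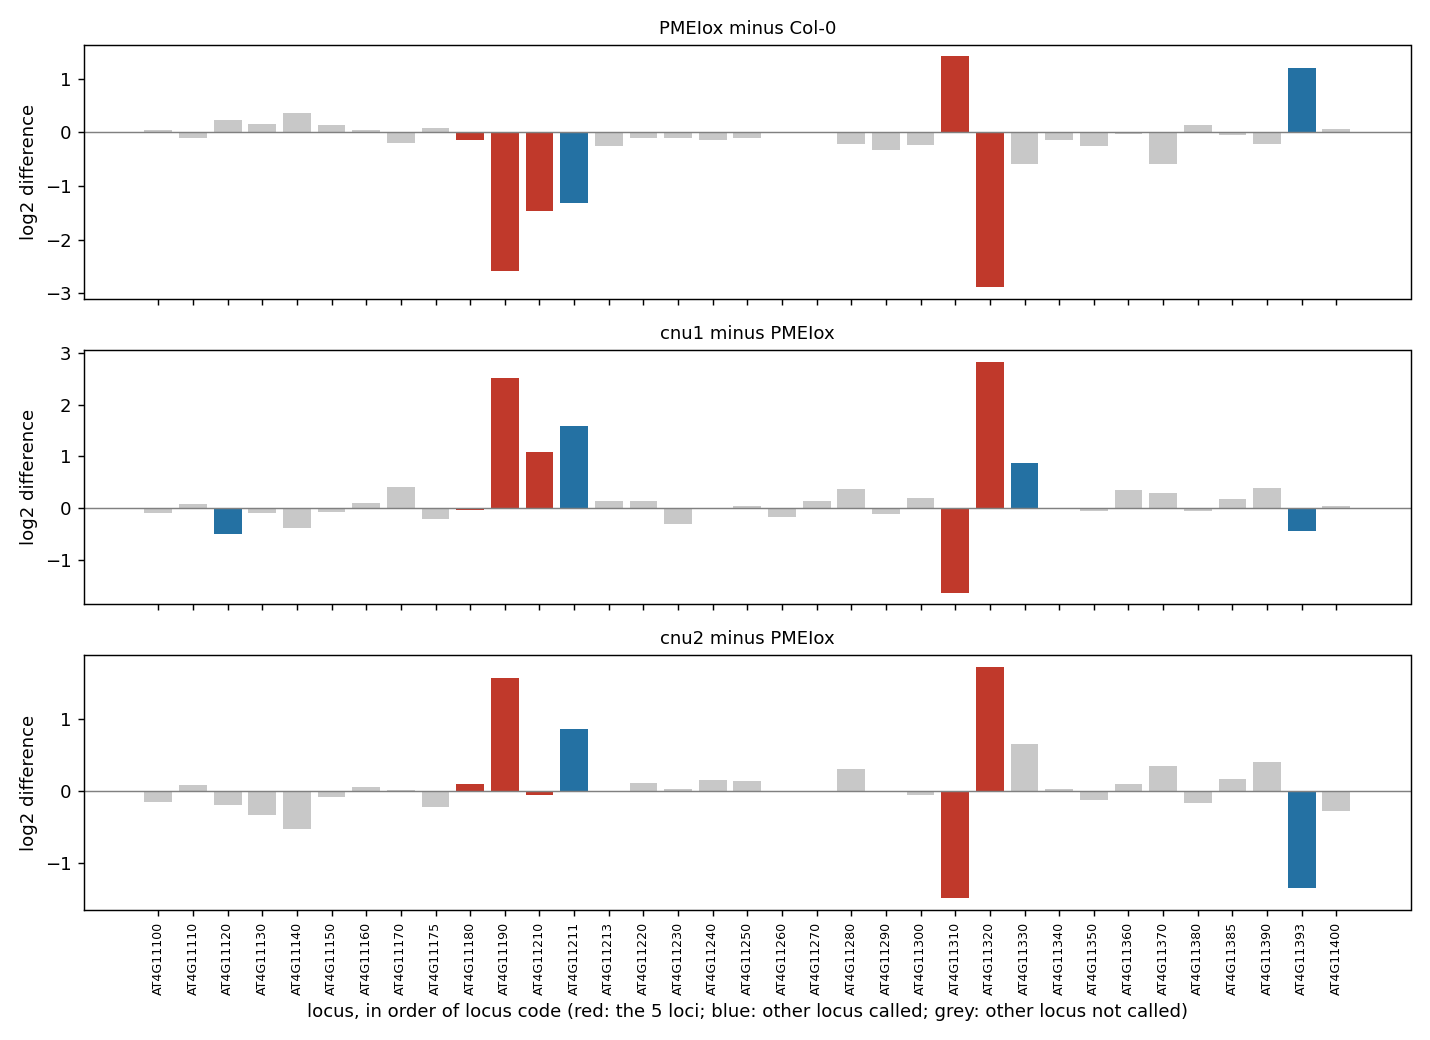
Log2 difference (vertical axis) of the 35 measured loci from AT4G11100 to AT4G11400 in order of locus code, for PMEIox minus Col-0, cnu1 minus PMEIox and cnu2 minus PMEIox, with the 5 loci in red, other called loci in blue and loci not called in grey. The bars between AT4G11213 and AT4G11300 are short in all 3 comparisons. AT4G11211 and AT4G11393 are blue in each, and AT4G11120 and AT4G11330 (MPK5) are blue in cnu1 minus PMEIox as well.

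The rest of the dirigent family was tested to see whether the family as a whole differed. Of 22 other dirigent genes, 0 passed limma's test in any of the 6 comparisons, with 1 at an unadjusted p under 0.05 between PMEIox and Col-0, 2 between cnu1 and PMEIox, 4 between cnu2 and PMEIox, 3 between cnu1 and Col-0, 4 between cnu2 and Col-0 and 0 between cnu1 and cnu2. Over all loci of the arrays 5.25% were called between PMEIox and Col-0, 6.44% between cnu1 and PMEIox and 3.25% between cnu2 and PMEIox. The share was 0.622% between cnu1 and Col-0, 0.187% between cnu2 and Col-0 and 0.568% between cnu1 and cnu2. Only 11 of the 22 dirigent genes remained when the lowest 40% of loci were removed. Low signal thus limits what 0 calls can show. The median log2 difference of the 22 between PMEIox and Col-0 was 0.05, with a range from -0.21 to 0.41, beside -2.58 for AT4G11190. Against PMEIox their median was 0.11 in cnu1 and 0.13 in cnu2. Against Col-0 it was 0.19 in cnu1 and 0.18 in cnu2, beside 0.0029 and 0.002 over all loci. Between cnu1 and cnu2 it was -0.02. Whether the family differs from the table was not tested. The highest difference among the 22 between cnu1 and PMEIox was 0.53, for AT5G42500. That gene was called without the lowest loci, with the trend and robust settings and without cnu1 B.

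Genes that act on the products of dirigent proteins or build the Casparian strip were also measured. Of 11 such genes, 0 rose and 1 fell in PMEIox against Col-0 (median 0.07), 9.09% beside 5.25% of all loci. In cnu1 against PMEIox 2 rose and 1 fell (median 0.21), 27.3% beside 6.44%. In cnu2 against PMEIox 1 rose and 0 fell (median 0.20), 9.09% beside 3.25%. These shares rest on few genes, and whether the list differs from the table was not tested. The gene that fell in PMEIox was PRR1 (AT1G32100), which encodes pinoresinol reductase 1, the enzyme that reduces the lignan pinoresinol. PRR1 read 9.36, 9.52 and 9.37 in Col-0, 8.63, 8.63 and 8.67 in PMEIox, 9.45, 9.71 and 9.83 in cnu1, and 9.48, 9.69 and 9.35 in cnu2. It fell by 0.78 ± 0.12 (SE, limma adjusted p = 0.00234) in PMEIox and rose against PMEIox by 1.02 (limma adjusted p = 0.000243) in cnu1 and by 0.87 (limma adjusted p = 0.00194) in cnu2. All PMEIox arrays lay below those of the other genotypes, and cnu2 overlapped Col-0. CASP5 (AT5G15290), a Casparian strip scaffold gene, and UGT71C1 (AT2G29750), a glucosyltransferase gene, differed by 0.49 and -0.40 between cnu1 and PMEIox (limma adjusted p = 0.0474 and 0.0488), calls that ended in 10 of 20 and 15 of 19 alternatives.

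Papain-like proteases other than the 2 loci moved in both directions. Of 30 genes, 3 rose and 2 fell in PMEIox against Col-0, 16.7% beside 5.25% of all loci. In cnu1 against PMEIox 3 rose and 1 fell, 13.3% beside 6.44%, and in cnu2 against PMEIox 2 rose and 2 fell, 13.3% beside 3.25%. Medians were 0.08, 0.05 and 0.04, and whether the list differs from the table was not tested. XCP1 (AT4G35350), which clears the contents of dying xylem cells, fell by 1.14 ± 0.18 (SE, limma adjusted p = 0.00259) in PMEIox, from 6.98 ± 0.15 to 5.84 ± 0.18 (SD, n = 3 each). It rose against PMEIox by 1.12 (limma adjusted p = 0.00227) in cnu1 and by 0.86 (limma adjusted p = 0.0228) in cnu2, and the latter call ended without cnu2 A, cnu2 B, PMEIox A or PMEIox C or with the compared genotypes alone (adjusted p from 0.0528 to 0.0882). The 5 xylem secondary wall markers, which do not include XCP1, had a summed linear level of 916 to 1205 in Col-0, 497 to 562 in PMEIox, 1141 to 1296 in cnu1 and 733 to 990 in cnu2, and their part in the XCP1 and dirigent values was not tested.

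AT2G34080 had the largest rise of these proteases in PMEIox, at 1.10 ± 0.13 (SE, limma adjusted p = 0.000504), from 5.76 ± 0.21 to 6.87 ± 0.11 (SD, n = 3 each). Its difference was -0.71 for cnu2 against PMEIox (limma adjusted p = 0.0149) and 0.80 for cnu1 against Col-0 (limma adjusted p = 0.0223). The former call ended without cnu2 A or PMEIox A (adjusted p up to 0.0675), and the latter ended without cnu1 B, cnu1 C, Col-0 A or Col-0 B or with the compared genotypes alone (adjusted p up to 0.117). AT1G29090 rose by 0.56 (limma adjusted p = 0.00309) and AT2G21430 fell by 0.70 (limma adjusted p = 0.00461) in PMEIox, and AT2G21430 rose against PMEIox by 0.72 in cnu2 (limma adjusted p = 0.00657). AT3G54940 was called in all 3 comparisons with PMEIox, 0.77 higher in PMEIox than in Col-0 (limma adjusted p = 0.0469), but its calls ended in 11, 4 and 9 of 20 alternatives (adjusted p up to 0.145).

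A protease of the same family was called in the 3 comparisons that involve cnu1 and in none of the others. AT4G36880, listed as RDL1 and also as CP1, which is a different locus from AT4G11310, read 10.06, 9.66 and 9.89 in Col-0, 9.82, 9.93 and 10.06 in PMEIox, 11.004, 10.88 and 10.96 in cnu1, and 10.35, 9.79 and 10.17 in cnu2. The cnu1 arrays lay above all others, which overlapped. It was higher in cnu1 by 1.01 ± 0.15 against PMEIox (SE, limma adjusted p = 0.00117), by 1.08 against Col-0 (limma adjusted p = 0.00686) and by 0.85 against cnu2 (limma adjusted p = 0.0235). The call against cnu2 ended without cnu1 A, cnu1 B, cnu1 C, cnu2 B or cnu2 C or with the compared genotypes alone (adjusted p from 0.0674 to 0.106). CEP2 (AT3G48340), an endopeptidase gene, was also higher in cnu1 than in PMEIox, by 0.70 (limma adjusted p = 0.00876), and than in cnu2, by 0.74 (limma adjusted p = 0.0366), of which the second ended in 8 of 20 alternatives.

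**Figure D3:**
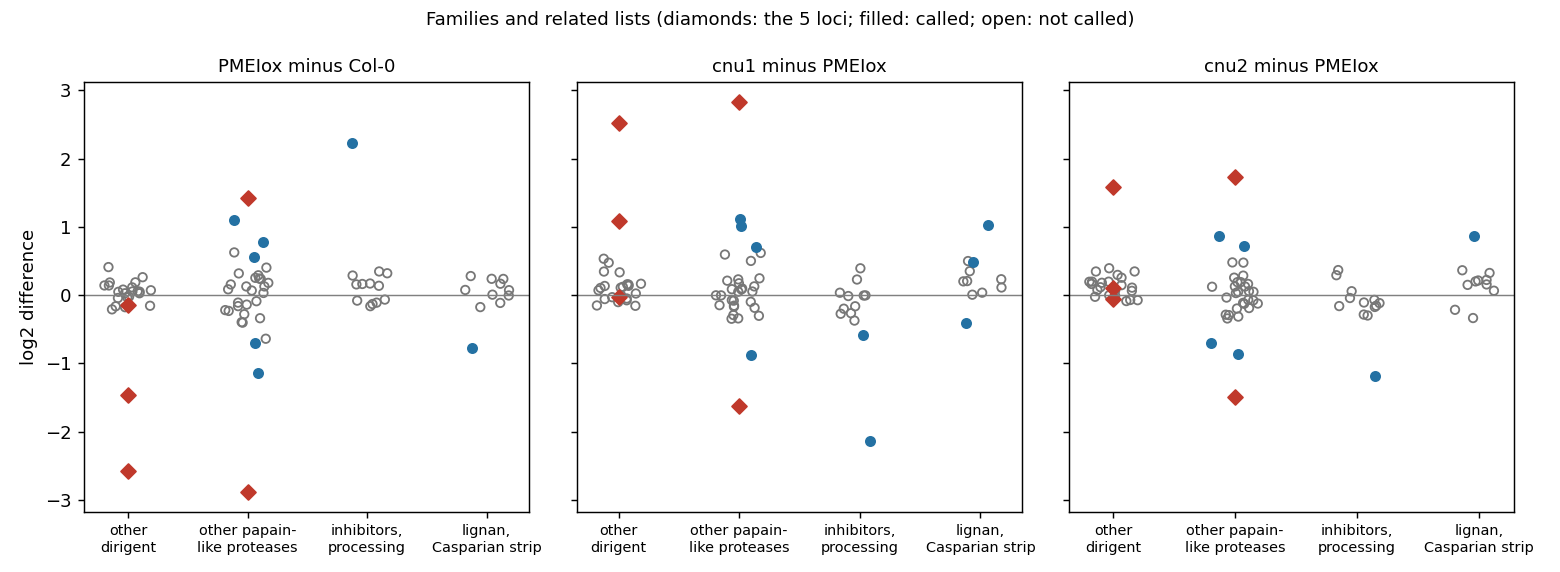
Log2 difference (vertical axis) of other dirigent genes, other papain-like proteases, inhibitors and processing enzymes of these proteases, and lignan and Casparian strip genes in 3 comparisons, with 1 point per gene, filled where called and open where not, and diamonds for the 5 loci whatever their test gave. All 22 other dirigent genes are open points within 0.6 of 0, while called proteases lie on both sides of 0 and AT1G72290 is the single high inhibitor in PMEIox minus Col-0.

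Proteins that act on papain-like proteases were measured as a list of 13, made up of 7 cystatins, 4 vacuolar processing enzymes, SERPIN1 and the inhibitor AT1G72290. In PMEIox against Col-0 1 rose and 0 fell, 7.69% beside 5.25% of all loci. In cnu1 against PMEIox 0 rose and 2 fell, 15.4% beside 6.44%, and in cnu2 against PMEIox 0 rose and 1 fell, 7.69% beside 3.25%. Medians were 0.16, -0.16 and -0.12. These shares rest on few genes, and whether the list differs from the table was not tested. AT1G72290 alone gave the call in PMEIox against Col-0 and in cnu2 against PMEIox. Since the list was made with earlier results of these data known, its shares and calls are a description. AT1G72290 read 4.54, 3.75 and 4.51 in Col-0, 6.80, 6.27 and 6.43 in PMEIox, 4.49, 4.05 and 4.57 in cnu1, and 5.64, 5.29 and 5.04 in cnu2. PMEIox stood highest, cnu2 stood between without overlap, and cnu1 overlapped Col-0, which is the order of AT4G11320 turned upside down. The place of cnu2 above Col-0 and cnu1 did not pass the test. The difference was 1.05 for cnu2 minus Col-0 (limma adjusted p = 0.123) and -0.95 for cnu1 minus cnu2 (limma adjusted p = 0.134). AT1G72290 rose by 2.23 ± 0.23 (SE, limma adjusted p = 0.000163) in PMEIox and fell by 2.13 ± 0.23 (SE, limma adjusted p = 0.000157) in cnu1 against PMEIox. In cnu2 against PMEIox it fell by 1.18 ± 0.23 (SE, limma adjusted p = 0.0184), a call that ended without cnu2 B, cnu2 C, PMEIox A or PMEIox C (adjusted p from 0.0524 to 0.0808). The cystatin gene CYS2 (AT2G31980) fell in cnu1, with differences of -0.58 from PMEIox (limma adjusted p = 0.019) and -0.66 from Col-0 (limma adjusted p = 0.0439), calls that ended in 4 and 13 of 20 alternatives.

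Loci with profiles most like those of the 5 were found by Pearson correlation of log2 values over the 12 arrays, given as a measure of likeness without a p. The 12 points share the same 4 genotypes, so they are not independent conditions. AT4G11320 was most like SWEET3 (AT5G53190), a sugar transporter gene, at 0.985, CPD (AT5G05690), a brassinosteroid synthesis gene, at 0.985, and AT4G11190, at 0.982. SWEET3 stood at 6.88 in Col-0, 4.93 in PMEIox, 6.93 in cnu1 and 6.30 in cnu2, and CPD at 9.46, 8.19, 9.51 and 9.05. AT4G11190 was most like CYP705A5 (AT5G47990), which encodes a cytochrome P450 of the triterpene thalianol pathway, at 0.989, MEE23 (AT2G34790) at 0.987 and SWEET3 at 0.983. AT4G11190 and AT4G11320 shared SWEET3 among their closest loci.

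The other members had other nearest profiles. AT4G11210 was most like GH9B8 (AT2G32990), a glycosyl hydrolase gene, at 0.935, which stood at 7.99 in Col-0, 6.95 in PMEIox, 7.88 in cnu1 and 7.05 in cnu2 and so was low in cnu2 too. KCS16 and scpl29 followed at 0.919 and 0.894. AT4G11310 was most like SESA3 (AT4G27160), a seed storage albumin gene, at 0.987, the dehydrin gene LEA (AT2G21490) at 0.974, and AT1G67105 at 0.969. SESA3 stood at 6.39 in Col-0, 9.88 in PMEIox, 6.02 in cnu1 and 6.37 in cnu2. The 14 seed markers, SESA3 among them, had a summed linear level of 766 to 891 in Col-0, 5663 to 7213 in PMEIox, 704 to 1692 in cnu1 and 730 to 1759 in cnu2, with no marker under 2.75 on the log2 scale on any array. That of the 9 root hair markers was 103 to 114 in Col-0, 182 to 475 in PMEIox, 213 to 235 in cnu1 and 126 to 139 in cnu2. The part of these cell types in the AT4G11310 values was not tested. For AT4G11180, whose values were level, the closest locus was AT3G47170 at 0.884.

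**Figure D4:**
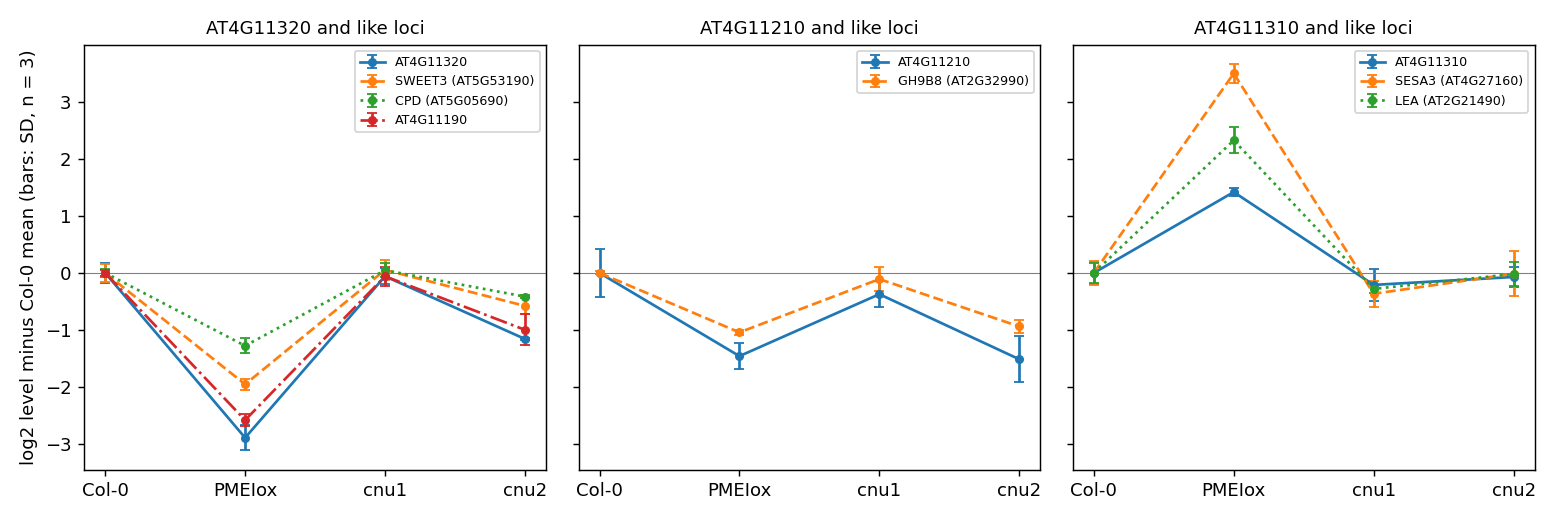
Mean log2 level minus the Col-0 mean (vertical axis, bars SD, n = 3) in Col-0, PMEIox, cnu1 and cnu2 for AT4G11320, AT4G11210 and AT4G11310, each with loci of the most similar profile. AT4G11320 and its like loci are intermediate in cnu2, AT4G11210 and GH9B8 stay low in cnu2, and AT4G11310, SESA3 and LEA peak in PMEIox alone.

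Among each other, AT4G11190 and AT4G11320 correlated at 0.982 over the 12 arrays, AT4G11190 and AT4G11210 at 0.775, and AT4G11210 and AT4G11320 at 0.739. AT4G11310 correlated at -0.91 with AT4G11190, at -0.884 with AT4G11320 and at -0.53 with AT4G11210. AT4G11180 lay between -0.186 and 0.292 with the others. By likeness to the mean of the 5 standardised profiles, a mixture of these patterns, the 8 closest other loci were ProT3, AUG6, GXM3, SERK2, DUO3, AT3G53100, FBA5 and AT1G50280, from 0.938 to 0.88. ProT3 (AT2G36590), a proline transporter gene, stood at 5.82 in Col-0, 4.88 in PMEIox, 5.32 in cnu1 and 5.10 in cnu2.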

How the data were processed

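Biotinylated cRNA from 12 seedling RNA samples was hybridised to Affymetrix arrays, per the labels' protocols. The authors deposited 1 value per locus and array, read here as log2 intensity from its range. Array type, log base, background correction and probe summary are not given in the sources used here. All 12 columns held one set of sorted values, so no normalization was added. The number of arrays limits the precision (median SE of a log2 difference 0.137).

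Differences were fitted with limma 3.58.1 (R 4.3.3), lmFit on the means of the 4 genotypes over all 12 arrays and eBayes (8 residual and 4.06 prior degrees of freedom). Two-sided p-values received a Benjamini-Hochberg adjustment across the whole table, with calls made where the adjusted value fell under 0.05. The p-values measure the spread between the deposited replicates. The procedure was tested on simulated data.

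The members and lists were chosen with earlier results of these data known, and family membership came from background knowledge. Symbols came from a RefSeq gene table (TAIR10.1) that matched 27241 loci. The build behind the arrays is not given, so no coordinates are printed, and no sequences were used here. Named besides the 5 loci were PMEI5, BRI1 and RLP44, up to 4 called loci with the smallest adjusted p per list and comparison, the 8 loci most like the mean of the 5 and the 3 most like each. CRU3, NAC074, ACS6, SGT1B, AT5G42500 and, for PMEIox against Col-0, AT3G54940 were named after their values were seen.

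Alternatives were quantile normalization, median centring, centring on 10 reference genes, removal of the lowest 40% of loci (16697 kept), trended and robust eBayes (statmod 1.5.0), array weights, the compared genotypes alone, the replicate letter as a block, and omission of each array. Figures used matplotlib 3.10.9.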

Additional observations from a re-analysis of the deposited data

How the results depend on the processing

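The log2 differences of the 5 loci moved by less than the SD between replicates in all 588 combinations of locus, comparison and alternative. AT4G11180 and AT4G11210 are among the lowest 40% of loci, so the alternative without those loci does not cover them. Many alternatives leave group means unchanged and cannot move a difference. With 1 array left out, PMEIox minus Col-0 ran from -2.63 to -2.53 for AT4G11190, from -1.68 to -1.27 for AT4G11210 and from -2.99 to -2.77 for AT4G11320.

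Counts of calls moved more, and beyond fewer samples or loci the cause was not tested. Over the whole table, fitting the compared genotypes alone gave 868 loci in place of 1460 for PMEIox against Col-0, 441 in place of 905 for cnu2 against PMEIox, 55 in place of 173 for cnu1 against Col-0, 0 in place of 52 for cnu2 against Col-0 (2798 at an unadjusted p under 0.05) and 89 in place of 158 for cnu1 against cnu2. Trended and robust eBayes gave 1490 loci for cnu2 against PMEIox, 631 for cnu1 against Col-0, 236 for cnu2 against Col-0 and 267 for cnu1 against cnu2. Without the lowest loci 439 were called for cnu1 and 117 for cnu2 against Col-0. Centring on the reference genes gave 17 higher and 20 lower loci for cnu2 against Col-0, in place of 30 and 22.

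With 1 array left out, the whole table gave 882 to 1480 loci for PMEIox against Col-0 (lowest without Col-0 B, PMEIox B or PMEIox A), 1061 to 1833 for cnu1 against PMEIox (lowest without cnu1 C, PMEIox A or PMEIox C), and 395 to 874 for cnu2 against PMEIox (at most 602 without any array of either genotype). It gave 45 to 175 for cnu1 against Col-0, 10 to 35 for cnu2 against Col-0 and 66 to 160 for cnu1 against cnu2.

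Of other dirigent genes 0 were called, except 1 for cnu1 against PMEIox without the lowest loci, with trended and robust eBayes or without cnu1 B (range 0 to 1), and 1 for cnu2 against Col-0 with trended and robust eBayes. Of other papain-like proteases, the compared genotypes alone gave 2 calls in place of 4 for cnu2 against PMEIox, 1 in place of 2 for cnu1 against Col-0 and 1 in place of 2 for cnu1 against cnu2, and omission of an array 1 to 4 (fewest without cnu2 A or PMEIox A, 2 without cnu2 B or PMEIox C), 1 to 2 (1 without cnu1 B, cnu1 C, Col-0 A or Col-0 B) and 0 to 2 (0 without any cnu1 array, cnu2 B or cnu2 C, 1 without cnu2 A or PMEIox C). Of neighbouring loci, omission of an array gave 1 to 4 calls for cnu1 against PMEIox (fewest without cnu1 A, cnu1 B or PMEIox A, 2 without cnu1 C), and 1 to 2 for cnu1 against cnu2 (2 without Col-0 A or PMEIox A). In the latter comparison 2 were called in place of 1 without the lowest loci, with trended and robust eBayes and with array weights.

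The replicate letters are shared by the genotypes, but no label ties a letter to a week. Deviations from the group means correlated at -0.137 to 0.19 between arrays of the same letter (median 0.0754, over 0.1 in 7 of 18 pairs) and at -0.131 to 0.125 between arrays of other letters (median -0.0309, over 0.1 in 3 of 36). The letters were not taken as pairs over the 4 genotypes. For Col-0 with cnu2 alone all 3 same-letter pairs were over 0.1 (0.1002, 0.137 and 0.173), which meets the condition for pairing in that comparison. With the letter as a replicate block 1596 loci were called for PMEIox against Col-0, 1871 for cnu1 and 975 for cnu2 against PMEIox, 179 for cnu1 and 41 for cnu2 against Col-0, and 172 for cnu1 against cnu2. In the cnu2 against Col-0 comparison 0 other dirigent genes, other proteases and neighbouring loci were called with and without the block. The block gave 1 other protease in place of 2 and 2 neighbouring loci in place of 1 for cnu1 against cnu2.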
